A study of Homo sapiens with 9 samples.

Results

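The 5 genes of a kinase circuit were followed through formate treatment of glioblastoma cells, namely the apoptosis-associated kinase gene AATK, its relatives LMTK2 and LMTK3, the kinase gene CDK5, and CDK5R1, which encodes an activator of CDK5. They are 5 of the 23727 genes in the count table, and their rows were found by the Ensembl identifiers that carry these symbols. AATK was chosen for its rise at 24 h, the largest among genes that passed the test and averaged at least 5 CPM (the count scaled to library size). Its values at 24 h are therefore given as a description, with no test. The other 4 were taken for their family or their partnership, not for their counts.

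The cells were LN229, an established human glioblastoma line. Their DMEM held glucose at 17 mM, glutamine at 2 mM and serum at 10%, and RNA was sequenced from untreated cells (0 h) and from cells given 500 µM sodium formate for 8 h or 24 h. Formate is the simplest carboxylate and a carbon donor of folate metabolism. Each of the 3 groups held 3 libraries, numbered 1 to 3 in the labels, which do not say whether they came from separate cultures, so the p-values measure only the spread between these libraries. All untreated libraries were taken at 0 h, so formate and time in culture cannot be told apart. The labels spell the line in more than 1 way, and the spelling of the growth protocol is used here.

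The lemur tyrosine kinases, encoded by AATK (also called LMTK1), LMTK2 and LMTK3, are membrane-anchored kinases that act on serine and threonine despite their name. They are best known from neurons, where AATK acts on recycling endosomes that carry the small GTPase Rab11 and restrains the growth of neurites. CDK5 is an unusual cyclin-dependent kinase: it is switched on by the proteins encoded by CDK5R1 and CDK5R2 rather than by a classical cyclin, and it phosphorylates cytoskeletal and synaptic proteins. AATK is 1 of its substrates. The calcium-dependent protease calpain cuts the CDK5R1 product to a shorter and longer-lived activator.

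AATK (ENSG00000181409) lies on chromosome 17 of GRCh38, from 81117295 to 81166077 on the minus strand, and CDK5R1 (ENSG00000176749) on the same chromosome from 32486619 to 32491256 on the plus strand. LMTK2 (ENSG00000164715) spans 98106885 to 98209633 on the plus strand of chromosome 7. CDK5 (ENSG00000164885) spans 151053812 to 151058530 on the minus strand of that chromosome, and genes on the opposite strand overlap 11.27% of its exons. LMTK3 (ENSG00000142235) spans 48485271 to 48513935 on the minus strand of chromosome 19. The opposite-strand overlap of AATK is 3.28% and that of LMTK2, LMTK3 and CDK5R1 is 0. GENCODE release 29 lists 11 AATK transcripts with 11 different starts, the outermost at 81166077, and the counts do not separate them.

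Promoters are shown for AATK and for LMTK3 and CDK5R1, whose libraries at 24 h also all lay above those at 0 h. They run from 250 bases before to 50 bases after the start that RefSeq gives on GRCh38.p14, and RefSeq's AATK start is the internal one at 81131954. Capitals mark the motifs searched on both strands: the GC box GGGCGG, the CCAAT box CCAAT, the E-box CACGTG, the AP-1 site TGACTCA and the SRE-1 core TCACNCCAC.
AATK promoter, chr17:81131905-81132204, minus strand: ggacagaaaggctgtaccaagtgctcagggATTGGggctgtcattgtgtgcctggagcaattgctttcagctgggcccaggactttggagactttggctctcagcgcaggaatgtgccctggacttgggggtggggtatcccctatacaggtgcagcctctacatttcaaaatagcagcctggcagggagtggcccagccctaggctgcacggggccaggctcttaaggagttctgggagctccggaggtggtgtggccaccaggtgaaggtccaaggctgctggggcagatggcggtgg
LMTK3 promoter, chr19:48511786-48512085, minus strand: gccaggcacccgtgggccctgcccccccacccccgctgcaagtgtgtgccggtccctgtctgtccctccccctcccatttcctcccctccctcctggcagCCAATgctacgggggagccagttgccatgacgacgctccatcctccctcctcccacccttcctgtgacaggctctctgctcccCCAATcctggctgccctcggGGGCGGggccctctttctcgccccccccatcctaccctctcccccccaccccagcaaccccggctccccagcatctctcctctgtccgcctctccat
CDK5R1 promoter, chr17:32486743-32487042, plus strand: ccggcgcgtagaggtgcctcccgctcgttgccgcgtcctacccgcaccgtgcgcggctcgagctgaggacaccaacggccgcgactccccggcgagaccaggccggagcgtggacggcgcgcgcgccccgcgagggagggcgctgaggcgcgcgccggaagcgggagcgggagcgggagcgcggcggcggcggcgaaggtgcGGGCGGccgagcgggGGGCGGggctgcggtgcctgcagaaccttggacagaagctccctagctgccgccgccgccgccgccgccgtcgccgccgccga
The AATK window held 1 CCAAT box, on the opposite strand at position -220 (the start base is 0), and 0 GC boxes. The LMTK3 window held 2 CCAAT boxes (-150 and -67) and 1 GC box (-47), and the CDK5R1 window 2 GC boxes (-48 and -33). None of the 5 genes' windows held an E-box, an AP-1 site or an SRE-1 core. Of 35116 windows of this length, 45% hold a GC box, 34.6% a CCAAT box, 7.26% an E-box, 4.95% an AP-1 site and 1.13% an SRE-1 core. The windows also differed in CpG content. AATK had 4 CpG dinucleotides, against a median of 14 over all windows, LMTK3 had 11 and CDK5R1 had 57, a number that 99.8% of windows do not exceed.

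AATK is also a host of microRNA genes, and the mature sequences of MIR338, MIR657 and MIR1250 are shown because they lie on its own strand, between its GENCODE exons. Capitals mark the seed, bases 2 to 8.
hsa-miR-338-3p, chr17:81125887-81125908, minus strand: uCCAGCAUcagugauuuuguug
hsa-miR-338-5p, chr17:81125923-81125944, minus strand: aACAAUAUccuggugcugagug
hsa-miR-657, chr17:81125291-81125313, minus strand: gGCAGGUUcucacccucucuagg
hsa-miR-1250-5p, chr17:81133265-81133285, minus strand: aCGGUGCUggauguggccuuu
hsa-miR-1250-3p, chr17:81133228-81133246, minus strand: aCAUUUUCcagcccauuca
The 5 seeds differ from each other. The libraries were made from mRNA, which does not capture mature microRNAs: the row of the MIR657 hairpin held 4 counts over the 9 libraries, and the microRNAs were not analysed here.

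Library totals lay between 22222298 and 25848242 counts. A limit of 3 counts, used for a gene at 0, is 0.135 CPM at the lowest depth. Replicate 1 stood apart at 0 h and at 8 h. On the first principal component of the 500 most variable genes it scored -23.5 and -21.6, against -3.41 to -0.798 for the other untreated and 8 h libraries and 9.56 to 25 for those of 24 h. Fold changes of the 5 genes and counts of the gene lists are also given without replicate 1 of every group where they differ. Of 10 glioma and astroglial markers with a row, VIM, NES and SOX2 averaged 3530, 727 and 134 TPM (a level per exon length, scaled to a fixed sum per library), while GFAP was near 0 at 0.0868 TPM. All 4 microglial and macrophage markers with a row were below 1 TPM.

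AATK stood at 1.70, 4.89 and 5.62 CPM in untreated replicates 1, 2 and 3. At 8 h the values were 2.04, 6.08 and 5.57 CPM, and at 24 h they were 15.1, 17.9 and 25 CPM. Every library of 24 h thus lay above all 6 of the earlier ones, and replicate 1 was the lowest of its group at each time. The group means were 4.07 ± 2.09 CPM at 0 h, 4.57 ± 2.20 at 8 h and 19.3 ± 5.07 at 24 h (SD, n = 3 each).

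The fitted log2 fold change of AATK at 24 h against 0 h was 2.24 with a standard error of 0.42, and at 24 h against 8 h it was 2.08 with a standard error of 0.41. With the replicate number as a block the value at 24 h against 0 h was 2.32 with a standard error of 0.22. Libraries of the same number differed 8.92-fold, 3.65-fold and 4.44-fold between 0 h and 24 h for numbers 1, 2 and 3, so the number with the lowest start had the largest ratio. Without replicate 1 of every group the log2 fold change was 2.03 at 24 h against 0 h and 1.88 at 24 h against 8 h. At 24 h against 0 h AATK had rank 9 of all 15273 tested genes, and it ranked second of 10918 genes of at least 5 CPM. That limit is on the mean of all libraries, and AATK reached it only through 24 h, with means of 4.07 CPM at 0 h and 4.57 at 8 h. The rank restates the value that chose the gene. Among the 10918 genes the pseudogene EEF1A1P5 ranked above AATK, with a log2 fold change of 2.65 and a standard error of 0.93. Its groups overlapped and its adjusted p was 0.114 by edgeR's quasi-likelihood test. The next genes below AATK were IGFBP5 (1.84), SCARA5 (1.82), FAXDC2 (1.82) and KCNJ10 (1.75), of which KCNJ10 passed (edgeR adjusted p 0.0421).

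At 8 h AATK did not pass the test against 0 h. The log2 fold change was 0.16 with a standard error of 0.43 (edgeR adjusted p 0.9999, over all 15273 tested genes), and the same-number ratios were 1.20, 1.24 and 0.992. The untreated libraries are shared with the comparison that chose the gene. Without untreated replicate 1 the estimate was -0.20, and without replicate 2 of 8 h it was -0.10.

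**Figure D1:**
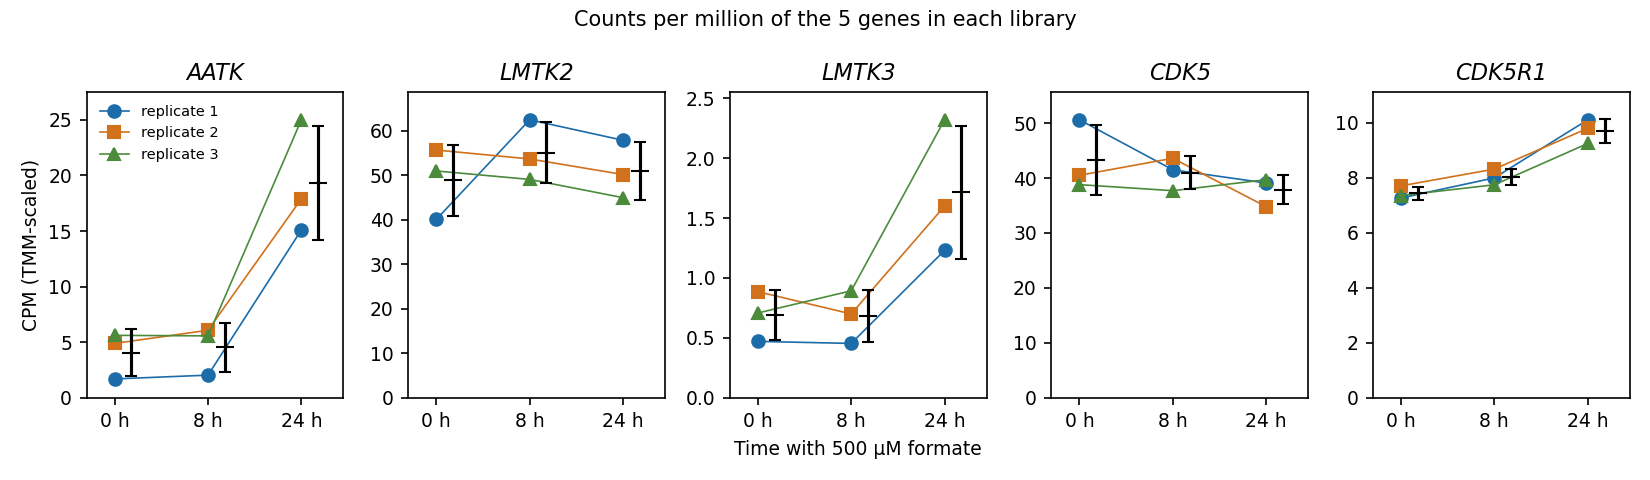
CPM (TMM-scaled, linear axes from 0) of the 5 genes at 0, 8 and 24 h; symbols and lines follow replicate numbers 1 to 3, and black bars give the mean ± SD of 3 libraries. AATK is at 15.1 to 25 CPM at 24 h and at no more than 6.08 before; LMTK3 and CDK5R1 are also highest at 24 h, and LMTK2 and CDK5 overlap between the groups.

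LMTK3, whose product has been studied as a regulator of the oestrogen receptor in breast cancer, was the least abundant of the 5. Untreated replicates 1, 2 and 3 held 0.471, 0.886 and 0.708 CPM, those of 8 h 0.454, 0.700 and 0.893 CPM, and those of 24 h 1.23, 1.60 and 2.32 CPM. As for AATK, all 3 libraries of 24 h lay above all earlier ones and replicate 1 was the lowest at each time. These values rest on 10 to 56 counts per library. Counting error alone gives a coefficient of variation of 24.7% at 0 h, against an observed 30.2%, and of 15.7% at 24 h, against 32.5%. Scaled by library totals alone, the gene reached the filter's 0.433 CPM in 4 of the 6 libraries of 0 h and 8 h, so it did not enter the tests through its level at 24 h alone.

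The log2 fold change of LMTK3 at 24 h against 0 h was 1.30 with a standard error of 0.34, and it missed the threshold of 0.05 narrowly (edgeR adjusted p 0.0552). The replicate block rests on a pairing inferred from these same libraries. With it LMTK3 passed as higher (log2 fold change 1.29, standard error 0.25, edgeR adjusted p 0.00391). It passed with the block in each of the 9 fits that left out 1 library, with adjusted p-values from 0.00634 to 0.0302. Without the block it passed in 1 of 9 such fits, the one without replicate 1 of 24 h (adjusted p 0.0390). Same-number ratios were 2.60, 1.80 and 3.28 for numbers 1, 2 and 3, and without replicate 1 of every group the log2 fold change was 1.29. At 24 h against 8 h it was 1.32 with a standard error of 0.34 (edgeR adjusted p 0.0516), and it passed when either untreated replicate 1 (0.0232) or replicate 1 of 24 h (0.0346) was left out. At 8 h the estimate was -0.02 with a standard error of 0.38 (edgeR adjusted p 0.9999).

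LMTK2, which binds protein phosphatase 1 and acts with myosin VI in endosomal traffic, was the most abundant of the 3 family genes and did not pass in any comparison. Its untreated libraries held 40.1, 55.7 and 51.0 CPM, those of 8 h 62.5, 53.7 and 49.1 CPM and those of 24 h 57.9, 50.2 and 45.0 CPM. The groups overlapped, and the lowest and the highest of the 9 values were both from replicate 1. The log2 fold change at 24 h against 0 h was 0.06 with a standard error of 0.14 (edgeR adjusted p 0.813). Number 1 differed 1.44-fold and numbers 2 and 3 differed 0.901-fold and 0.882-fold, so the sign rests on replicate 1: without untreated replicate 1 the estimate was -0.08, and without replicate 1 of every group it was -0.16. At 8 h it was 0.17 with a standard error of 0.14 (edgeR adjusted p 0.9999), and -0.05 without replicate 1 of every group.

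CDK5, the catalytic subunit, did not pass in any comparison either. It held 50.6, 40.5 and 38.8 CPM at 0 h, 41.5, 43.6 and 37.7 at 8 h, and 39.1, 34.8 and 39.7 at 24 h. Untreated replicate 1 was the highest of the 9, and the groups overlapped. The log2 fold change at 24 h against 0 h was -0.19 with a standard error of 0.12 (edgeR adjusted p 0.312, and 0.210 with the replicate block). It was -0.09 without replicate 1 of every group. The estimate was -0.11 at 24 h against 8 h (edgeR adjusted p 0.602) and -0.08 at 8 h against 0 h (0.9999).

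CDK5R1, whose product activates CDK5, showed a small and even difference. Its libraries held 7.26, 7.70 and 7.35 CPM at 0 h, 7.99, 8.31 and 7.74 at 8 h, and 10.1, 9.79 and 9.24 at 24 h. In CPM the 3 groups did not overlap and stood in the order of time, though 0 h and 8 h were separated only by 7.70 against 7.74. In TPM the libraries of 0 h (6.17 to 7.73) and 8 h (7.55 to 8.35) overlapped, so that step depends on the scaling. The replicates were closer to each other than counting error alone would give, with a coefficient of variation of 3.14% at 0 h against 7.60% from counting.

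The log2 fold change of CDK5R1 at 24 h against 0 h was 0.38 with a standard error of 0.12 (edgeR adjusted p 0.0861). With the replicate block it passed (log2 fold change 0.38, standard error 0.11, edgeR adjusted p 0.0282). Same-number ratios were 1.39, 1.27 and 1.26. This call depended on the full set of libraries: with the block, leaving out 1 library gave adjusted p-values from 0.0402 to 0.103 and 1 pass in 9, the fit without replicate 1 of 8 h. At 24 h against 8 h the log2 fold change was 0.28 with a standard error of 0.12 (adjusted p 0.198), and at 8 h against 0 h it was 0.11 with a standard error of 0.12 (adjusted p 0.9999).

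**Figure D2:**
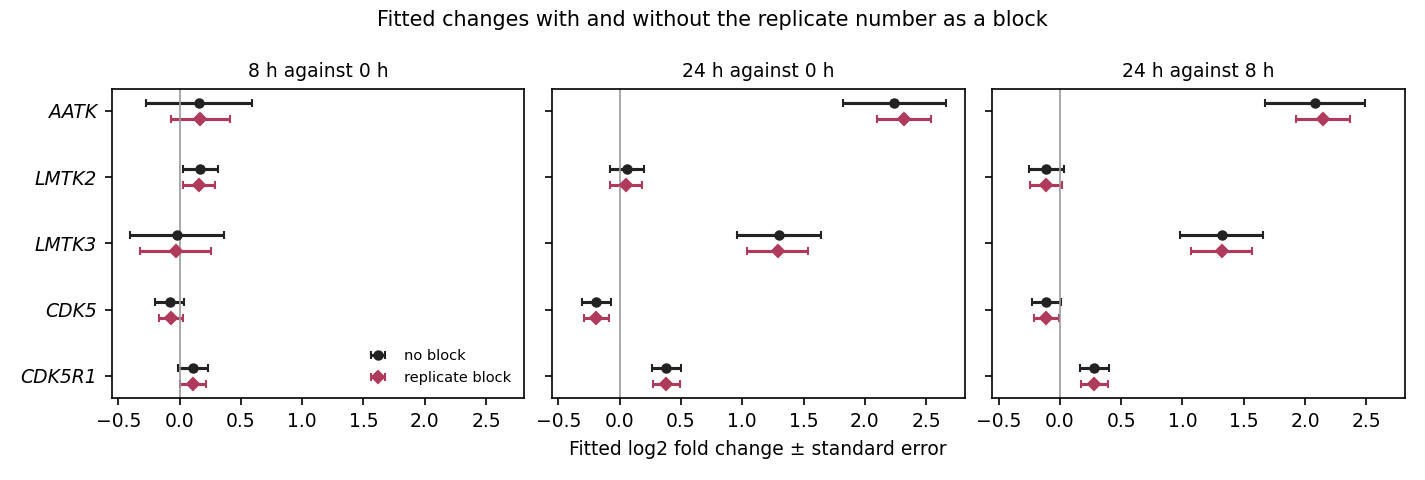
Fitted log2 fold changes of the 5 genes (points) with their standard errors (bars) in the 3 comparisons, without (black circles) and with (red diamonds) the replicate number as a block. AATK, which was chosen by the middle panel, is at 2.24 there and at 0.16 in the panel of 8 h; LMTK3 is at 1.30 and -0.02, and CDK5R1 at 0.38 and 0.11.

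Counted together at 24 h against 0 h, 0 of the 4 genes other than AATK passed edgeR's test without the block, where 4.25% of all tested genes passed in either direction. At an unadjusted p under 0.05 there were 2 of 4, LMTK3 and CDK5R1, against 26.4% of all genes. At an adjusted p under 0.05 DESeq2 called 1 of 4 and limma-voom 0, and DESeq2 also passed more of all genes than edgeR did. With the block 2 of 4 passed, both higher, where 24.1% of all genes passed, 12.6% as higher. The libraries of 2 of 4 did not overlap between 24 h and 0 h, both higher at 24 h, as did those of 15.9% of all genes. At 24 h against 8 h, 0 of 4 passed (4.56% of all genes did), 2 had an unadjusted p under 0.05 (22.8% of all genes did), and the libraries of 2 of 4 lay wholly higher, as for 18.2% of all genes. At an adjusted p under 0.05 DESeq2 called 1 and limma-voom 0 in that comparison, where DESeq2 again passed more of all genes than edgeR did. At 8 h against 0 h, 0 of 4 passed by edgeR, DESeq2 or limma-voom, 0 had an unadjusted p under 0.05 (0.517% of all genes did), and 0% of all genes passed. CDK5R1 alone of the 4 had libraries that did not overlap in CPM at 8 h, as did 1.43% of all genes in that direction. In TPM its libraries of 0 h and 8 h overlapped. A test for any difference among the 3 groups gave edgeR adjusted p-values of 0.0598 for LMTK3, 0.162 for CDK5R1, 0.582 for CDK5 and 0.732 for LMTK2, and 3.64% of all genes passed it.

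Levels were compared between the genes per exon length, as TPM. At 0 h the order was CDK5 (60.3 ± 2.88 TPM), LMTK2 (22.3 ± 5.47), CDK5R1 (7.10 ± 0.824), AATK (2.78 ± 1.57) and LMTK3 (0.510 ± 0.189; SD, n = 3 each), and no 2 neighbours in this order overlapped over the libraries. At 24 h AATK reached 13.6 ± 3.87 TPM and stood above CDK5R1 at 9.82 ± 0.310 TPM, though the lowest AATK library (10.2) barely exceeded the highest of CDK5R1 (10.1). LMTK3 remained the lowest at 1.33 ± 0.460 TPM. With the longest transcript as the length, the order at 0 h was again CDK5 (71.1), LMTK2 (16.1), CDK5R1 (5.02), AATK (2.34) and LMTK3 (0.399 TPM).

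The make-up of the family shifted with these levels. AATK contributed 10.2% ± 4.04 of the summed TPM of the 3 lemur kinases at 0 h, 10.8% ± 5.45 at 8 h and 34.4% ± 7.98 at 24 h. The sum itself was 25.6 ± 7.14 TPM at 0 h (17.4 in replicate 1 against 30.6 and 28.8 in the others), 29.2 ± 1.42 at 8 h and 39.3 ± 1.99 at 24 h. CDK5 exceeded its activator CDK5R1 by a TPM ratio of 8.60 ± 1.44 at 0 h, 7.52 ± 0.299 at 8 h and 5.75 ± 0.548 at 24 h (SD, n = 3 each). The ratios of 24 h, 5.23 to 6.32, lay below those of 0 h, 7.75 to 10.3. These shares restate the values above and were not tested.

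**Figure D3:**
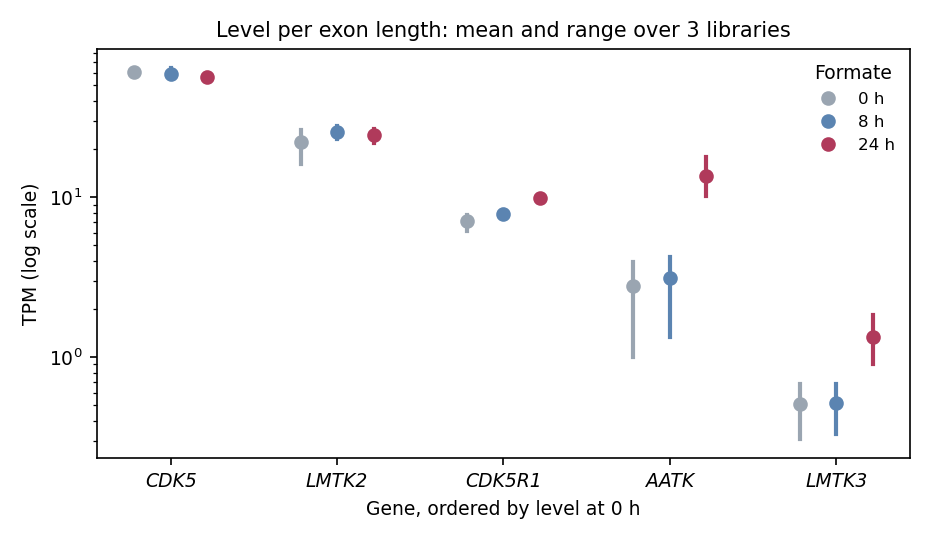
Level per exon length (TPM, log axis) of the 5 genes at 0, 8 and 24 h; points are means and vertical bars the range of 3 libraries. AATK moves from 2.78 TPM at 0 h to 13.6 at 24 h, past CDK5R1, while CDK5 and LMTK2 keep the highest levels.

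Other genes of the same circuit were read from lists of binding partners, activators, relatives, proteases and substrates. Among 19 tested binding partners of the lemur kinases at 24 h against 0 h, 0 rose and 1 fell. Over all tested genes 2.47% passed as higher and 1.77% as lower. The median log2 fold change was -0.27, against 0.01 over all tested genes. The gene that fell was HSP90AA1, a chaperone of many kinases, from 3530 ± 624 to 1970 ± 234 CPM (log2 fold change -0.84, edgeR adjusted p 0.0268). With the replicate block 10 fell and 1 rose, where 11.6% of all tested genes passed as lower and 12.6% as higher. The fallers with the block included KLC2, a kinesin light chain (-0.45, edgeR adjusted p 0.00297 with the block), HSP90AB1 (-0.39, 0.00614) and the phosphatase subunits PPP1CA and PPP1CC. The riser was SLC12A2, which encodes the sodium, potassium and chloride cotransporter NKCC1 (0.34, 0.0362). In 7 of the 9 fits with the block that left out 1 library no gene of this list rose, nor did any without replicate 1 of every group. RAB11A, which encodes the endosomal GTPase, did not pass (-0.13, adjusted p 0.367), nor did TBC1D9B, which encodes a GTPase-activating protein of Rab11 (-0.02, 0.900).

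Of 11 activators and binding proteins of CDK5, 0 rose and 2 fell without the block, and 1 rose and 2 fell with it. The median was -0.09. Over all tested genes 4.25% passed without the block and 24.1% with it, in either direction. CABLES1, an adaptor that links CDK5 to tyrosine kinases, went from 10.7 ± 1.31 to 6.97 ± 0.656 CPM (log2 fold change -0.62, edgeR adjusted p 0.0408). CCND1, the cyclin D1 gene, went from 943 ± 137 to 563 ± 129 CPM (-0.74, 0.0442). CDK5RAP3 passed with the block only (0.65, edgeR adjusted p 0.0130). CDK5R2, the other activator gene, was at 0.394 ± 0.111 CPM at 0 h and 0.252 ± 0.188 at 24 h and did not pass (adjusted p 0.476). Of the 4 tested PCTAIRE and PFTAIRE kinases, the closest relatives of CDK5, CDK18 rose from 9.76 ± 1.90 to 17.8 ± 4.36 CPM (0.86, edgeR adjusted p 0.0462) and the others did not pass; the list's median was 0.05.

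Of 4 genes of calpain subunits and their inhibitor calpastatin, 1 fell without the block and 2 with it, with a median of -0.21. Over all tested genes 1.77% passed as lower without the block and 11.6% with it. CAPN2, the large subunit of m-calpain, went from 672 ± 97.5 to 424 ± 70.1 CPM (log2 fold change -0.66, edgeR adjusted p 0.0379). CAST, which encodes the calpain inhibitor calpastatin, passed with the block only (-0.23, edgeR adjusted p 0.0486). With the block, 8 of the 9 fits that left out 1 library had 1 fall in this list in place of 2. CAPN1 did not pass (0.11, adjusted p 0.444).

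Among 24 tested CDK5 substrates, 3 rose and 1 fell without the block, 8 rose and 2 fell with it, and the median log2 fold change was 0.16. MAPT, the gene of the microtubule protein tau, rose from 2.59 ± 0.546 to 5.98 ± 1.05 CPM (1.20, edgeR adjusted p 0.0199), and MAP2, of dendritic microtubules, rose from 56.8 ± 18.4 to 105 ± 9.23 CPM (0.89, 0.0396). TPX2, a spindle assembly factor, fell (-0.61, 0.0448). Over all tested genes 2.47% passed as higher and 1.77% as lower without the block, and 12.6% and 11.6% with it. In all of these lists the calls without the block depend on single libraries, since leaving out either replicate 2 or replicate 3 of 24 h left 0 passing genes in the whole table. With the block, leaving out 1 library gave 3 to 10 falls among the lemur kinase partners and 3 to 7 rises among the substrates. Without replicate 1 of every group, and without the block, 0 of the partners rose and 4 fell, and 5 substrates rose and 2 fell. In that fit 2 of the calpain and calpastatin genes fell. More genes of the whole table also passed there than with all 9 libraries, as the counts in the closing section show. The list counts of that fit are therefore not read as a result about the lists. The shares above are those of all 9 libraries, not of fits that left libraries out. No list gene passed at 8 h, where 0% of all genes did.

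**Figure D4:**
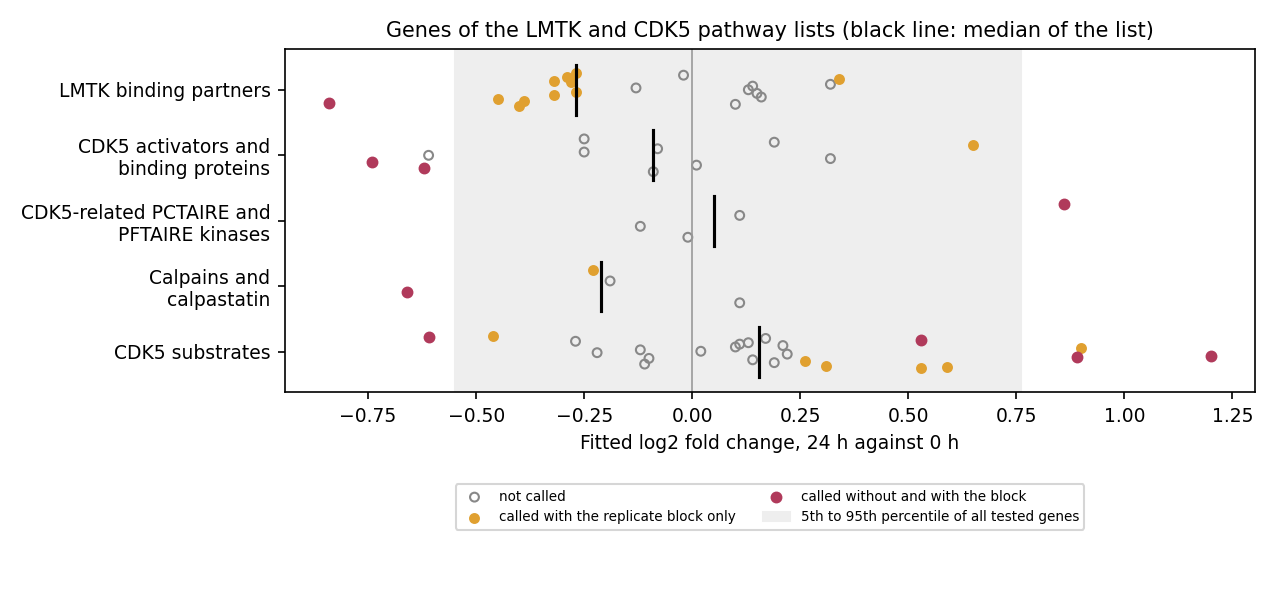
Fitted log2 fold change at 24 h against 0 h of each tested gene in the 5 pathway lists; colours show calls with and without the replicate block, black lines the list medians, and the grey band the 5th to 95th percentile of all tested genes (-0.55 to 0.76). Most binding partners of the lemur kinases lie left of 0 and the substrates range from -0.61 to 1.20.

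Markers of neural cell types moved in the same libraries. Of 6 tested oligodendrocyte markers all 6 had a positive estimate at 24 h against 0 h, as had 50.9% of all genes. Of these markers 1 rose without the block and 3 with it. Over all tested genes 2.47% passed as higher and 1.77% as lower without the block, and 12.6% and 11.6% with it. The summed level of the 7 markers with a row was 1240 to 1540 TPM at 0 h, 1380 to 1550 at 8 h and 1670 to 2100 at 24 h, most of it SOX10, while MBP was near 0 at 0.0605 TPM. Of 6 tested neuron markers, SNAP25 and MAP2 rose and 0 fell without the block, and 3 had a positive estimate. With the block 2 rose and 1 fell, GAP43, of growth cones (-0.52, edgeR adjusted p 0.0147). The summed level of the 8 with a row was 67.1 to 106 TPM at 0 h and 112 to 121 at 24 h, with STMN2 near 0 at 0.173 TPM. Of 9 tested glioma markers 1 rose without the block, S100B (1.38, edgeR adjusted p 0.0460), and 3 rose and 2 fell with it. The 1 tested endothelial marker, VWF, rose from 0.424 ± 0.131 to 1.28 ± 0.274 CPM (1.60, edgeR adjusted p 0.0304), and all 3 with a row were below 1 TPM. Without replicate 1 of every group, and without the block, 2 neuron markers rose and 2 fell. In that fit 3 oligodendrocyte markers rose and 0 fell, and 3 glioma markers rose and 2 fell. More genes of the whole table also passed there than with all libraries, as the counts in the closing section show. The marker counts of that fit are therefore not read as a result about the markers. The part of these genes in the AATK result was not tested, and in bulk RNA fewer cells of a kind and less RNA per cell cannot be told apart.

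Near the outermost start of AATK, no other tested gene passed the test without the block. Besides AATK, 4 tested genes start within 100 kb of its outermost start, and 0 passed at 24 h against 0 h by edgeR, at an adjusted or an unadjusted p under 0.05. Of all tested genes 4.25% passed at the adjusted and 26.4% at the unadjusted threshold, so 0 of 4 is no result about this region. CEP131, a centrosome gene on the same strand, was at 75.2 ± 11.3 CPM at 0 h and 68.2 ± 2.89 at 24 h (log2 fold change -0.14, adjusted p 0.451). TEPSIN was at 48.3 ± 5.42 and 47.0 ± 6.25 CPM (-0.04, 0.868). NDUFAF8, an assembly factor of respiratory complex I, had an estimate of -0.50 (adjusted p 0.233) and fell with the replicate block (-0.46, edgeR adjusted p 0.0468). With the block 11.6% of all tested genes passed as lower. An antisense gene without a symbol, ENSG00000276101, had an estimate of 0.76 (adjusted p 0.338).

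The genes whose pattern over the 9 libraries was most like that of AATK were HPS5, TRPV4, TRIM9, SHC4 and RXRG. Likeness was the root-mean-square distance between standardised log2 CPM profiles, 0 for identical patterns, over 12842 genes with a symbol and at least 1 CPM. The distances were 0.0945, 0.101, 0.111, 0.116 and 0.119, and all 5 genes shared the low replicate 1 at 0 h and 8 h and the high libraries of 24 h. Their log2 fold changes at 24 h against 0 h were smaller than that of AATK, from 0.53 for TRPV4 to 1.19 for TRIM9. With the group means removed, the nearest genes were HPS5 (0.125), NLGN2 (0.127) and TRPV4 (0.135). The ranking was loose: leaving out 1 library kept between 1 (without replicate 1 of 8 h) and 4 of the 5 genes.

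Within the circuit, LMTK3 was the closest to AATK with a distance of 0.267, followed by CDK5R1 (0.558), LMTK2 (1.34) and CDK5 (1.73). LMTK3's own nearest genes were MXD4 (0.0777), TEAD2 (0.106) and PBXIP1 (0.111). Those of LMTK2 were HIPK2 (0.150), TENM3 (0.169) and MTOR (0.200). CDK5 was most like TRAPPC1 (0.152), GPR89A (0.187) and ISOC2 (0.188), and CDK5R1 like BEND3 (0.197), FAM111B (0.225) and AMBRA1 (0.237). These distances describe the 9 libraries, which share depth and library quality, and carry no test.

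**Figure D5:**
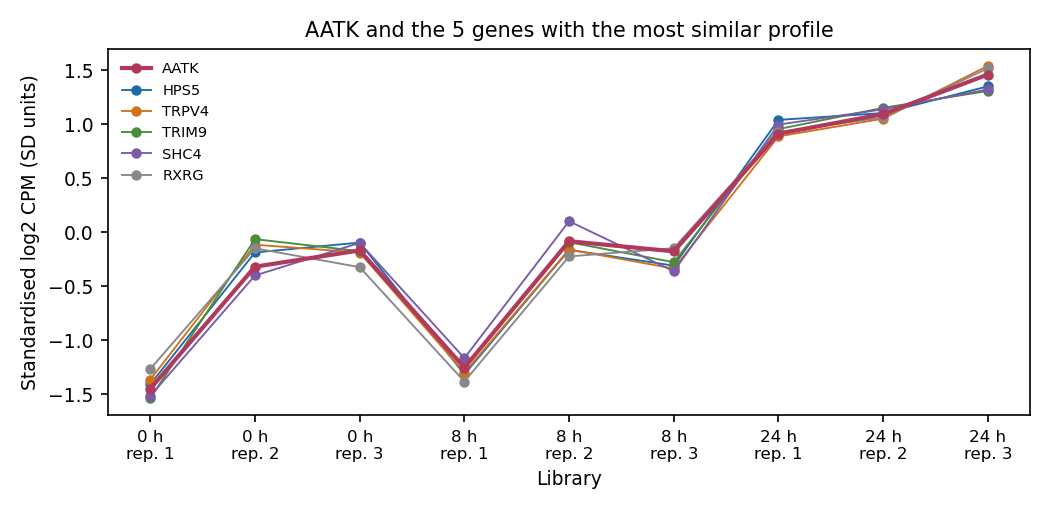
Standardised log2 CPM (SD units) of AATK (thick line) and of the 5 genes with the smallest distance to it, in each of the 9 libraries. All 6 profiles are lowest in replicate 1 of 0 h and 8 h and highest in the 3 libraries of 24 h, with distances of 0.0945 to 0.119.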

How the data were processed

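Gene expression was measured by RNA sequencing of 9 LN229 libraries. The authors deposited raw counts per Ensembl gene, whole numbers not normalised; per the submitters' processing notes bcl2fastq 2.20.0.422, STAR 2.7.4a and GRCh38 were used, and the counting program, annotation release and strand setting are not given in the sources used here. A symbol was found for 19733 of 23727 Ensembl identifiers, and coordinates and lengths are those of GENCODE 29 on GRCh38 (98% of genes). Promoter and microRNA sequences are RefSeq's on GRCh38.p14; all 5 genes matched, and protein sequences were not used here.

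filterByExpr left 15273 genes, and libraries were scaled with TMM. One mean per group was fitted over all 9 libraries with edgeR 4.0.16 in R 4.3.3 (glmQLFit, glmQLFTest, two-sided, Benjamini-Hochberg adjustment over all tested genes, threshold 0.05). CPM values carry the TMM factors, and log2 CPM a prior count of 2. TPM was computed from the counts and the union of GENCODE exons. A gene at 0 counts in a library is limited to 3 counts, for counting error only. The script was tested on simulated data.

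Deviations from the group means correlated between same-numbered libraries across genes, with r of 0.414 to 0.476 between 0 h and 8 h and of 0.164 to 0.367 between 0 h and 24 h, so the titles' numbers were taken to pair these groups. Between unlike numbers r was -0.364 to 0.0108 and -0.400 to 0.270. At 24 h number 2 was closer to untreated number 3 (0.270) than to number 2 (0.164). The labels state no pairing, so it was inferred from these same data, and the calls with the block rest on it. Between 8 h and 24 h r was 0.0367 for number 2, and those groups were not taken as paired. The lists held 107 entries in 10 sets, of which 84 were tested. Named were the 5 genes, up to 3 genes with the smallest p of a list, others of a list as examples chosen after their values were seen, the genes within 100 kb of AATK, and the nearest profiles. Some genes that this rule names are not reported here. The members and lists were chosen with earlier results of these data known. Alternatives covered scaling, filters, tools, the samples fitted, the block and leaving out each library.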

Additional observations from a re-analysis of the deposited data

How the results depend on the processing

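The 4 genes other than AATK and AATK itself were recomputed under 28 alternative settings, and 0 called values changed sign; AATK at 24 h against 0 h ranged from 1.86 to 2.60 on the log2 scale. At 24 h against 0 h, DESeq2 and the fit with no filter each called 1 of the 4 genes, LMTK3, and the replicate block called 2; leaving out 1 library gave 0 to 2. At 24 h against 8 h, DESeq2, no filter, the fit of the 2 groups compared and the block each called 1 of 4, and leaving out 1 library gave 0 to 1. For any difference among the groups, no filter and the block called 1, and leaving out 1 library gave 0 to 1. Leaving out replicate 1 of every group, chosen after seeing the data, called 1 of 4 in each of these 3, with and without the block. Over all genes at 24 h against 0 h the counts were 649 as reported, 1656 with DESeq2, 124 with the 2 groups alone, 3687 with the block, 0 to 3816 without 1 library, and 2616 (3991 with the block) without replicate 1 of every group. The same counts at 24 h against 8 h were 696, then 1458, 1787, 3130, 0 to 5432, and 3072 (4477). For any difference they were 556, 2986 with the block, 0 to 4636, and 2476 (3779). Counts over all genes are not given here for no filter or limma-voom, so the calls of those settings cannot be set against a share. The number of tested genes changes with the filter and the libraries fitted, so the counts above are not shares. No pairing was inferred between 8 h and 24 h, though the block, fitted over all libraries, carries the replicate number there too. At 24 h against 8 h the block gave LMTK3 an edgeR adjusted p of 0.00375 and CDK5R1 0.101. At 8 h no setting called a gene.

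Signs turned in estimates that no setting called. AATK at 8 h was -0.20 when untreated replicate 1 was left out and -0.10 when replicate 2 of 8 h was (0.00 and -0.08 with the block), and leaving out 1 library gave up to 0.51. LMTK2 at 8 h was -0.06 with the block without untreated replicate 1 and -0.05 without replicate 1 of every group, with or without the block, and as high as 0.29. LMTK3 at 8 h was 0.21 when untreated replicate 2 was left out (0.23 with the block), 0.00 for untreated replicate 3 and 0.20 for replicate 1 of 8 h; the lowest was -0.26. CDK5 at 8 h was 0.04 without untreated replicate 1 or replicate 1 of every group (0.03 with the block), and as low as -0.18. LMTK2 at 24 h against 0 h was -0.08 when untreated replicate 1 was left out (-0.18 with the block), -0.04 when replicate 1 of 24 h was (-0.06) and -0.16 without replicate 1 of every group (-0.16), and as high as 0.17. The cause was not tested. Depth limits LMTK3 most, at 10 to 56 counts per library.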
